A study of Homo sapiens with 6 samples.

Results

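The genes described here are the zinc finger genes with a ZNF symbol on the short arm of human chromosome 19, taken from a table of 63241 genes measured in T24 cells. A row was a member when its symbol was ZNF followed by a number and at most 1 letter, its start on chromosome 19 lay below position 26000000 (GRCh38) and its mean level over the 6 libraries was at least 0.5 FPKM. FPKM is the fragment count scaled to exonic length and library size, so it can be compared between genes. The short arm held 94 such rows at any level, of which 60 reached the minimum, 34 did not and 11 had no count in any library. T24 is an established human bladder cancer line. In the siUSP43 group (3 libraries, labelled as USP43 knockdown), cells received small interfering RNA against USP43, a ubiquitin-specific protease that removes ubiquitin from other proteins. In the siNC group (3 libraries, labelled WT), cells received a control small interfering RNA. All 6 libraries carry the same batch label, and the labels do not state a duplex sequence, whether the 3 siUSP43 libraries share a duplex, or whether any library came from a culture of its own. The p-values therefore cover the spread between these libraries, which may be technical.

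Most of these genes encode KRAB zinc finger proteins. A row of C2H2 fingers, each folded around a zinc ion, binds DNA, and in many of these proteins the bound sequence lies in a transposable element. The KRAB box at the other end recruits the co-repressor TRIM28, which brings the histone H3 lysine 9 methyltransferase SETDB1 and HP1 proteins, and the target is packed into silent chromatin. The genes arose by repeated tandem duplication, so they lie in clusters on chromosome 19 and resemble each other in sequence.

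The stretch of 24 bases found most often in the members' longest coding sequences is printed first because it separates the clusters described below. It codes for the start of a finger with its zinc-binding cysteines and was read from GENCODE release 29 transcripts. No base is capitalised, since the whole stretch was searched. It occurred 142 times in the coding sequences of 26 members, at most 15 times in 1 gene (ZNF91), and all 26 lay in the cluster nearest the centromere. Over annotated transcripts, not only the longest coding sequence, ZNF91 held it up to 16 times.
finger stretch: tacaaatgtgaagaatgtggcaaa

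The promoters of 4 genes follow, each from 250 bases before to 50 bases after the annotated start, from RefSeq on GRCh38.p14. ZNF681, ZNF714 and ZNF486 lie in the cluster nearest the centromere and rose in siUSP43 cells, and ZNF266 lies in another cluster and fell. Capitals mark 2 elements of 12 bases, CTGTCACTCAGG and GTCCAATCAGGC, that were common in promoters of the cluster nearest the centromere and were searched on both strands.
ZNF681 (chr19:23758842-23759141, minus strand): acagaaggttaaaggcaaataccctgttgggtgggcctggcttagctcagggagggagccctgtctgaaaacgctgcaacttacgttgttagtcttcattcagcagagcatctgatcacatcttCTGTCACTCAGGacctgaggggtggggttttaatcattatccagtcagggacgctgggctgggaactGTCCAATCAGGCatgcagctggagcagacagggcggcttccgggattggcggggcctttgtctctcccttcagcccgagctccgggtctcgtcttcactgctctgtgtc
ZNF714 (chr19:21081953-21082252, plus strand): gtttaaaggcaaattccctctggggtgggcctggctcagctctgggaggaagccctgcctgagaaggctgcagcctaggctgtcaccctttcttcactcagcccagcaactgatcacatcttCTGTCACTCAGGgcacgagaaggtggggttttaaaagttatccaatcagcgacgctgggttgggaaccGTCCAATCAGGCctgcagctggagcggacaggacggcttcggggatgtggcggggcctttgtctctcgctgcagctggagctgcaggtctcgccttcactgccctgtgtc
ZNF486 (chr19:20166964-20167263, plus strand): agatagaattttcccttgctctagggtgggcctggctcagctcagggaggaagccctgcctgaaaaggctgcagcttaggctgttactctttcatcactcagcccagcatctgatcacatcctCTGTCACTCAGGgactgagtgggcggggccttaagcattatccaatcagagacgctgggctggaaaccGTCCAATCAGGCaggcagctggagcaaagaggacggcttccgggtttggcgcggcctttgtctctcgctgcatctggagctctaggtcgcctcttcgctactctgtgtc
ZNF266 (chr19:9435524-9435823, minus strand): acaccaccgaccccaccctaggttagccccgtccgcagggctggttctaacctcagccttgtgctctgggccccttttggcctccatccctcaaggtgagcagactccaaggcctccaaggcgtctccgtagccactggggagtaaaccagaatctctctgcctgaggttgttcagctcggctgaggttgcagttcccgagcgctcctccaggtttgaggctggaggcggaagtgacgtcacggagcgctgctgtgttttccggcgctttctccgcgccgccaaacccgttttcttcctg

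The 2 elements were picked from these promoters after the fold changes were known, so their counts are a description. The table of promoters held 55 of the 60 members (not ZNF738, ZNF559, ZNF253, ZNF887P and ZNF506). CTGTCACTCAGG stood in 17 of 26 promoters (65.4%) of the cluster nearest the centromere, in 1 of 29 promoters (3.45%) of the other members and in 38 of all 35116 promoters (0.108%). GTCCAATCAGGC stood in 16 of the 26 (61.5%), in 1 of the 29 (3.45%) and in 32 of the 35116 (0.0911%). In ZNF486 the first element began at -127 and the second at -59 from the start. The second element contains CCAAT, the core of the box bound by NF-Y. CCAAT on either strand stood in 26 of the 26 promoters, in 17 of the 29 (58.6%) and in 34.6% of all promoters. The promoters of this cluster held a median of 10 CpG pairs (8 to 18), against 19 (8 to 34) in those of the other members, with a median GC content of 55.8% against 61.3%.

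The libraries held 21430574 to 25577200 counts, of which 5.41% to 5.81% came from mitochondrial genes. The members are low genes: their counts per library ran from 12 to 1625 with a median of 221, and their mean levels from 0.515 to 6.52 FPKM with a median of 1.36. USP43 had 1.02, 0.67 and 0.80 FPKM in siUSP43 libraries, against 2.36, 2.09 and 2.08 FPKM in siNC libraries. The groups did not overlap, and the mean was 0.83 ± 0.177 FPKM in siUSP43 cells and 2.18 ± 0.159 FPKM in siNC cells (SD, n = 3 each). The log2 fold change was -1.39 (SE 0.14, adjusted p 3.25e-06 in edgeR's quasi-likelihood test), and an exact two-sided permutation test gave p = 0.1, the smallest that 3 against 3 libraries allow. Of 14 urothelial and epithelial markers, 6 reached 1 FPKM (KRT7, KRT8, KRT18, KRT19, PPARG and FOXA1) and 7 had a mean over the 6 libraries under 0.1 FPKM, among them the uroplakins UPK1A, UPK1B, UPK2 and UPK3A. The summed level of the 14 was 471 to 534 FPKM in siUSP43 libraries and 533 to 550 FPKM in siNC libraries. Within this list FOXA1 fell (log2 fold change -1.23, SE 0.08), KRT7 (-0.37, SE 0.05) and KRT19 (-0.37, SE 0.07) fell, and PPARG (0.51, SE 0.07) and KRT8 (0.13, SE 0.05) rose. Their part in the values below was not tested. The 3 blood markers and the 2 endothelial markers had means under 0.1 FPKM, and the 3 fibroblast markers summed to 0.86 to 0.96 FPKM in siUSP43 libraries and 0.70 to 0.95 FPKM in siNC libraries. In bulk RNA, fewer cells of a kind and less RNA per cell cannot be told apart.

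Of the 60 members, 43 rose in siUSP43 cells (71.7%), 3 fell (5.0%) and 14 were not called. A gene was called at an adjusted p under 0.05 over all 13420 genes tested, and among all of those 26.6% were called higher and 25.9% lower. The median log2 fold change was 0.58 over the members (-0.46 to 1.87) and -0.01 over all genes tested. All 3 siUSP43 libraries lay above all 3 siNC libraries in 45 members, and below them in 3, while 29.9% of all genes tested lay above. A rise of at least 2-fold was called in 16 members, against 1.76% of all genes tested. The summed level of the 60 members was 129.6, 121.5 and 133.4 FPKM in siUSP43 libraries, against 87.6, 89.0 and 84.9 FPKM in siNC libraries, so the groups did not overlap. The minimum used the mean over both groups, and 5 members had a siNC mean under 0.5 FPKM (ZNF562, ZNF887P, ZNF429, ZNF730 and ZNF724), so they passed through their siUSP43 level. The 55 members at 0.5 FPKM or more in each group held 39 that rose and 3 that fell, with a median of 0.55. Among all 7175 tested genes under 5 FPKM, 21.8% were called higher and the median log2 fold change was -0.03.

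The members just inside the minimum were ZNF887P at a mean of 0.515 FPKM, ZNF555 at 0.552 FPKM and ZNF653 at 0.577 FPKM. Just outside it were ZNF846 at 0.468 FPKM, ZNF490 at 0.405 FPKM and ZNF57 at 0.37 FPKM.

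Where the starts of neighbouring ZNF rows lay more than 1000000 bases apart, the short arm was split. This gave 4 clusters with members, numbered from the telomere, and left 2 of the 94 rows alone, neither of them a member. The increases were uneven along them. Cluster 4 (positions 19668796 to 24129968, ZNF101 to ZNF254) held 29 members, and 29 of 29 rose, with a median log2 fold change of 1.00 (0.28 to 1.87) and no overlap between groups in any of them. In cluster 4, ZNF429, ZNF730 and ZNF724 passed the minimum through their siUSP43 level. With genes tested at a mean of at least 1 FPKM, 23 of 23 members of cluster 4 rose, with a median of 1.07. That minimum also used the mean over both groups, and some of the 23 passed it through their siUSP43 level. An example is ZNF257, with a siNC mean of 0.63 FPKM. Cluster 3 (11483427 to 12640098) had 8 of 17 members higher, 1 lower and a median of 0.39. Cluster 2 (7069703 to 9793180) had 6 of 12 higher, 2 lower and a median of 0.32. Cluster 1 (2819868 to 2944971) had 2 members, neither called, and a median of 0.24.

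**Figure D1:**
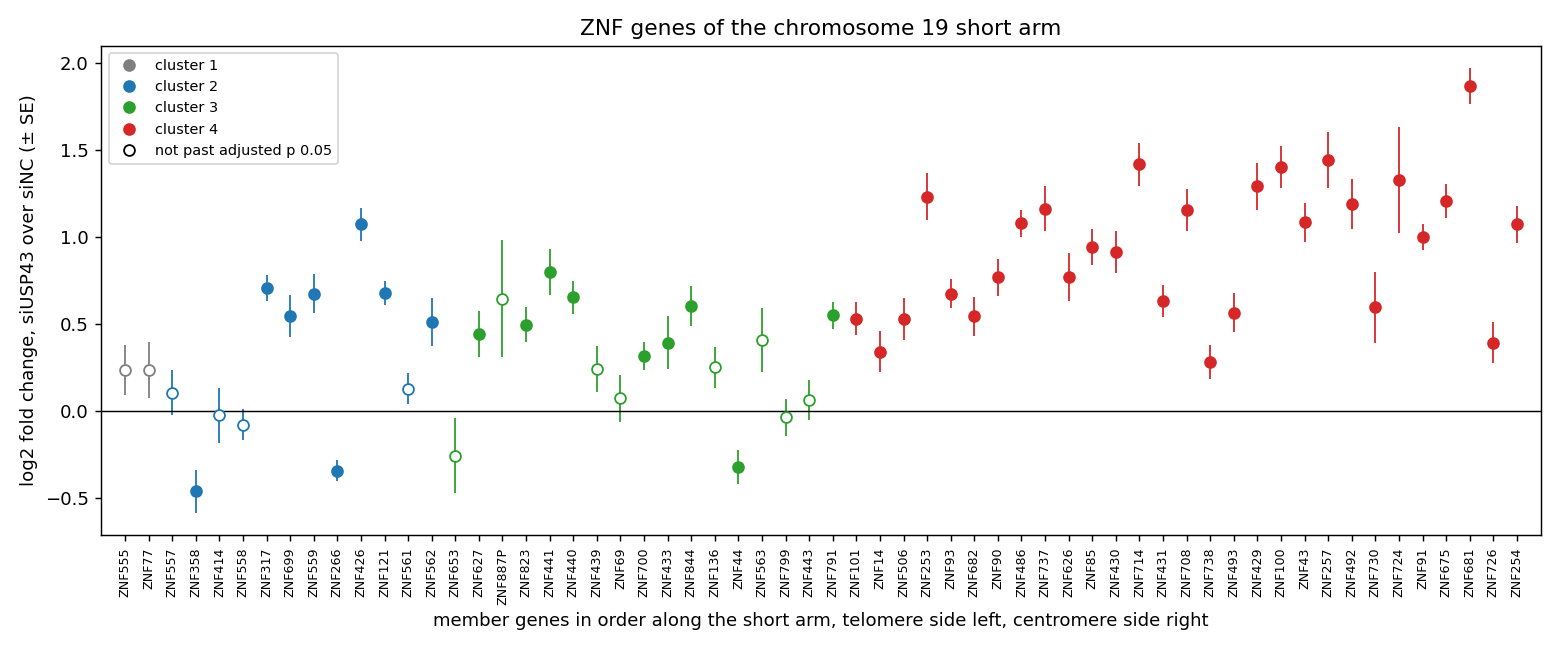
Log2 fold change of siUSP43 over siNC (y axis, ± SE) for the 60 members in their order along the short arm, telomere side left (x axis), coloured by cluster; open circles did not pass an adjusted p of 0.05. The 29 genes of cluster 4 lie between 0.28 and 1.87, while clusters 1 to 3 mix rises, falls and uncalled genes.

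Cluster 4 lies next to the centromere and holds the ZNF91 group of genes. Its members summed to 60.6, 54.7 and 64.6 FPKM in siUSP43 libraries, against 31.5, 31.8 and 28.7 FPKM in siNC libraries. The lowest siUSP43 sum was above the highest siNC sum, and the ratio of the means was 1.95 (59.9 ± 4.98 FPKM in siUSP43 cells, 30.7 ± 1.70 FPKM in siNC cells, SD, n = 3 each). The corresponding ratio was 1.28 in cluster 3, 1.15 in cluster 2 and 1.18 in cluster 1. In cluster 4, 15 of the 29 members rose at least 2-fold, and 1 of the 31 members of the other clusters did. Another 14 ZNF rows of cluster 4 lay under the minimum, 7 of them with no count, the highest being ZNF849P at a mean of 0.37 FPKM.

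ZNF681 had the largest fold change of the members. It had 3.44, 3.10 and 4.02 FPKM in siUSP43 libraries, against 0.95, 0.95 and 0.98 FPKM in siNC libraries (log2 fold change 1.87, SE 0.10, adjusted p 2.68e-08, edgeR). The siNC libraries were nearly equal, and each siUSP43 library stood far above them. ZNF257 had 1.70, 1.55 and 1.91 FPKM in siUSP43 libraries, against 0.54, 0.83 and 0.52 FPKM in siNC libraries (log2 fold change 1.44, SE 0.16, adjusted p 9.88e-06, edgeR). ZNF714 had 2.63, 2.17 and 3.20 FPKM in siUSP43 libraries, against 1.03, 1.04 and 0.91 FPKM in siNC libraries (1.42, SE 0.12, adjusted p 1.10e-06, edgeR). In both genes the third siUSP43 library was the highest and the second the lowest, as in ZNF681.

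ZNF100 had 3.34, 2.71 and 3.90 FPKM in siUSP43 libraries, against 1.32, 1.28 and 1.16 FPKM in siNC libraries, a log2 fold change of 1.40 (SE 0.12). ZNF675 encodes a protein that binds TRAF6, an adaptor of NF-kB signalling. It had 3.48, 3.24 and 3.86 FPKM in siUSP43 libraries, against 1.68, 1.57 and 1.32 FPKM in siNC libraries, a log2 fold change of 1.21 (SE 0.10). ZNF253 had 2.09, 1.98 and 1.85 FPKM in siUSP43 libraries, against 0.72, 0.97 and 0.81 FPKM in siNC libraries, a log2 fold change of 1.23 (SE 0.13). The highest siNC library stood well below the lowest siUSP43 library in all 3 of these genes.

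ZNF724 had the largest standard error of the 12 largest increases. It had 0.99, 0.57 and 1.14 FPKM in siUSP43 libraries, against 0.52, 0.36 and 0.21 FPKM in siNC libraries (log2 fold change 1.33, SE 0.30, adjusted p 0.00265, edgeR). The groups nearly met, and 48.3% of its 50-base stretches also occur in another gene, the highest share among the members. ZNF429 had 0.90, 0.74 and 0.97 FPKM in siUSP43 libraries, against 0.35, 0.36 and 0.36 FPKM in siNC libraries, a log2 fold change of 1.29 (SE 0.14). Both ZNF724 and ZNF429 passed the minimum through their siUSP43 level. ZNF492 had 2.08, 1.51 and 1.67 FPKM in siUSP43 libraries, against 0.73, 0.72 and 0.84 FPKM in siNC libraries, a log2 fold change of 1.19 (SE 0.14), and shares 33.3% of its 50-base stretches with other genes.

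The remaining genes of the 12 were ZNF737, ZNF708 and ZNF43. ZNF737 had 1.43, 1.44 and 1.96 FPKM in siUSP43 libraries, against 0.78, 0.70 and 0.67 FPKM in siNC libraries (log2 fold change 1.16, SE 0.13). ZNF708 had 2.00, 1.78 and 2.30 FPKM in siUSP43 libraries, against 0.87, 0.91 and 0.93 FPKM in siNC libraries (1.16, SE 0.12). ZNF43 had 1.89, 1.66 and 2.26 FPKM in siUSP43 libraries, against 0.92, 0.93 and 0.88 FPKM in siNC libraries (1.08, SE 0.11). Each gene was at least 2-fold higher, and the spread among the siUSP43 libraries exceeded that among the siNC libraries.

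**Figure D2:**
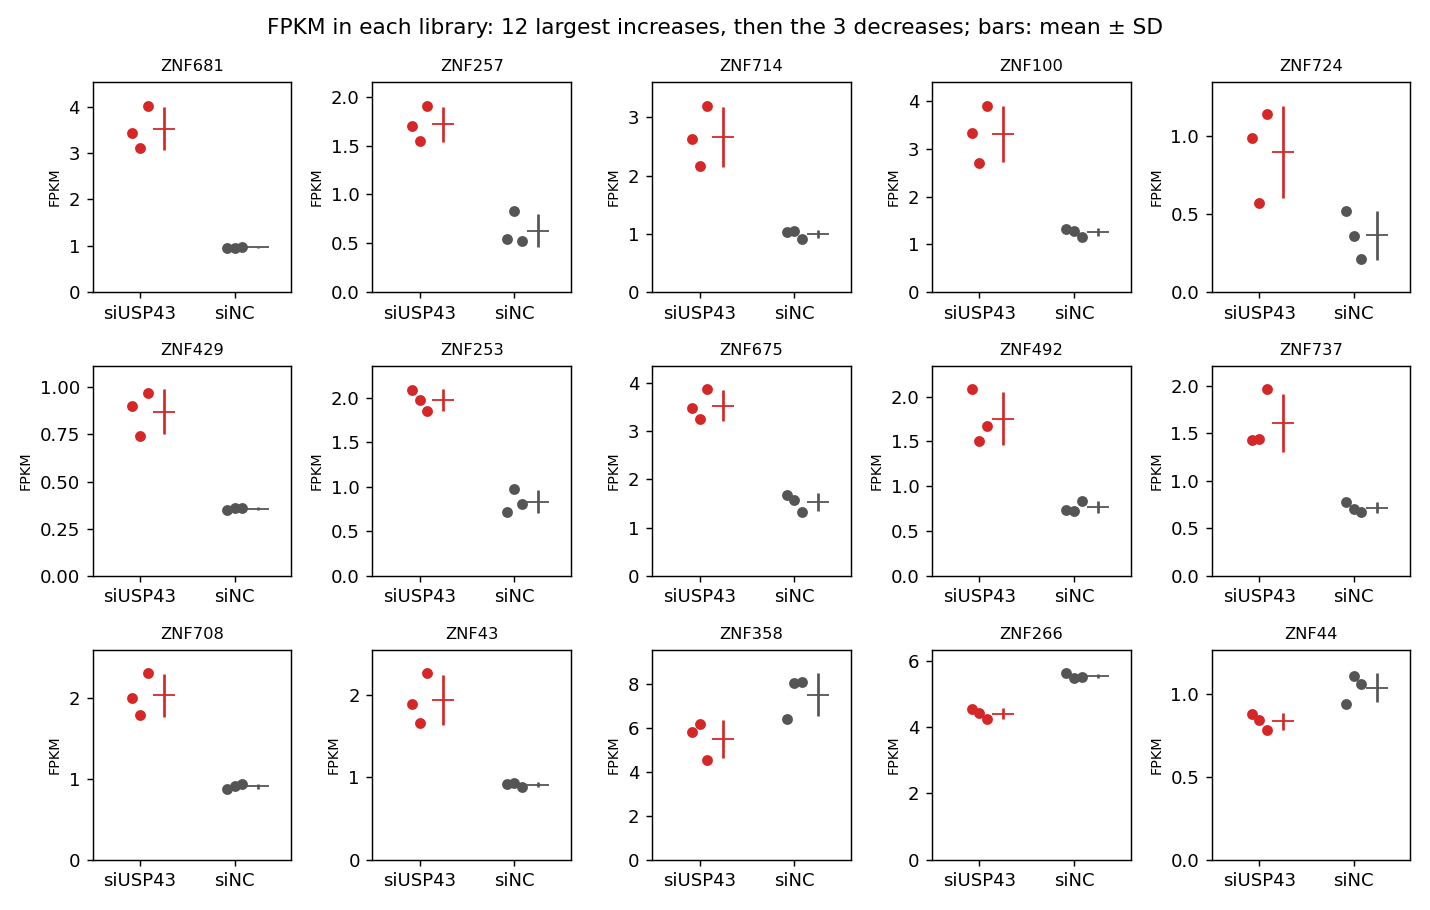
FPKM (y axis, from 0) in each siUSP43 and siNC library (points, x axis) for the 12 largest increases and the 3 decreases among the members, with bars for the mean ± SD of 3 libraries. In the 12 increases the siUSP43 points lie above the siNC points, as in ZNF681 (3.10 to 4.02 FPKM against 0.95 to 0.98 FPKM), and in ZNF358, ZNF266 and ZNF44 they lie below.

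Members of cluster 4 with known targets rose as well. ZNF91, which represses SVA elements and has the longest array of fingers among the members (31), had 2.57, 2.48 and 2.78 FPKM in siUSP43 libraries, against 1.31, 1.36 and 1.22 FPKM in siNC libraries (log2 fold change 1.00, SE 0.07, adjusted p 2.78e-07, edgeR). ZNF93, which represses some LINE-1 elements, had 2.89, 2.79 and 3.15 FPKM in siUSP43 libraries, against 1.84, 1.78 and 1.88 FPKM in siNC libraries (0.68, SE 0.08, adjusted p 1.99e-05, edgeR). The lowest siUSP43 library was above the highest siNC library in both genes. RNA of the elements themselves was not analysed here. ZNF486, the most abundant member of the cluster, had 5.47, 5.39 and 5.67 FPKM in siUSP43 libraries, against 2.72, 2.71 and 2.35 FPKM in siNC libraries (1.08, SE 0.08, adjusted p 2.30e-07, edgeR).

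Some increases of cluster 4 were smaller. ZNF101, the first member, had 2.2, 1.85 and 1.91 FPKM in siUSP43 libraries, against 1.43, 1.33 and 1.34 FPKM in siNC libraries (log2 fold change 0.53, SE 0.09). ZNF254, the last, had 2.27, 2.27 and 2.84 FPKM in siUSP43 libraries, against 1.28, 1.15 and 1.06 FPKM in siNC libraries (1.07, SE 0.11). The smallest fold changes were those of ZNF738 (0.28, SE 0.10), ZNF14 (0.34, SE 0.12) and ZNF726 (0.39, SE 0.12). These 3 genes and ZNF730 (0.59, SE 0.20) were the members of the cluster whose call depended on 1 library. The call of ZNF14 was lost without siUSP43 library 1 or 2 or without siNC library 2 or 3, and that of ZNF738 without siUSP43 library 3 or siNC library 1 or 2. The call of ZNF730 was lost without siUSP43 library 1 or siNC library 1 or 3, and that of ZNF726 without siUSP43 library 1. Without 1 library at a time, 26 to 28 of the 29 were called higher, and the 29 fold changes stayed positive.

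Cluster 3, which spans 11483427 to 12640098 over ZNF rows of any level, gave smaller and mixed values. ZNF441 had its largest increase, with 1.73, 1.39 and 1.92 FPKM in siUSP43 libraries, against 0.98, 1.03 and 0.88 FPKM in siNC libraries (log2 fold change 0.80, SE 0.13, adjusted p 0.000256, edgeR). ZNF440 (0.65, SE 0.10), ZNF844 (0.60, SE 0.12), ZNF791 (0.55, SE 0.08) and ZNF823 (0.50, SE 0.10) rose too. ZNF791 is the last member of the cluster and had 3.29, 3.57 and 3.83 FPKM in siUSP43 libraries, against 2.33, 2.49 and 2.44 FPKM in siNC libraries. ZNF700, among the 6 most abundant members, had 6.42, 5.41 and 5.66 FPKM in siUSP43 libraries, against 4.76, 4.78 and 4.43 FPKM in siNC libraries (0.32, SE 0.08). The groups did not overlap in either gene.

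ZNF627 (0.44, SE 0.13) was called, but not without siNC library 2. ZNF433 (0.39, SE 0.15, adjusted p 0.0453, edgeR) was called, but not without any one of siUSP43 libraries 1, 2 and 3 or siNC libraries 1 and 3, nor without a filter on low values or in DESeq2. ZNF433 also overlaps the antisense gene ZNF433-AS1, which fell (-0.32, SE 0.12), and without a stated strand setting the reads of the 2 genes cannot be told apart. ZNF44 was the only decrease of the cluster, with 0.88, 0.84 and 0.78 FPKM in siUSP43 libraries, against 0.94, 1.11 and 1.06 FPKM in siNC libraries (-0.32, SE 0.10, adjusted p 0.0145, edgeR). The groups did not overlap but nearly met, and the call was lost without siNC library 2 or 3. The pair ZNF799 (-0.03, SE 0.11) and ZNF443 (0.06, SE 0.11) did not pass the test and share 24% and 37.7% of their 50-base stretches with other genes. ZNF653, the first member, did not pass either: it had 0.65, 0.42 and 0.51 FPKM in siUSP43 libraries, against 0.50, 0.70 and 0.68 FPKM in siNC libraries (-0.26, SE 0.21). The pseudogene ZNF887P (0.65, SE 0.34, adjusted p 0.124, edgeR) and ZNF136 (0.25, SE 0.12) passed without siUSP43 library 1 and without siUSP43 library 2, in that order.

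In cluster 2, neighbouring members moved in opposite directions. ZNF426 was the only member outside cluster 4 that rose at least 2-fold, with 2.70, 2.41 and 2.54 FPKM in siUSP43 libraries, against 1.37, 1.16 and 1.09 FPKM in siNC libraries (log2 fold change 1.07, SE 0.09, adjusted p 1.21e-06, edgeR). Its neighbour on the telomere side, ZNF266, fell, with 4.55, 4.42 and 4.23 FPKM in siUSP43 libraries, against 5.62, 5.49 and 5.51 FPKM in siNC libraries (-0.34, SE 0.06, adjusted p 0.000465, edgeR). Its neighbour on the other side, ZNF121, had 7.51, 6.54 and 7.29 FPKM in siUSP43 libraries, against 4.60, 4.20 and 4.45 FPKM in siNC libraries (0.68, SE 0.07). The groups did not overlap in any of these 3 genes, which lie on the same strand within 9412429 to 9584504.

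ZNF317 had 5.66, 5.56 and 5.50 FPKM in siUSP43 libraries, against 3.56, 3.05 and 3.56 FPKM in siNC libraries (log2 fold change 0.71, SE 0.07). ZNF559 (0.67, SE 0.11) and ZNF699 (0.54, SE 0.12) also rose. ZNF562, the last member, had 0.71, 0.59 and 0.80 FPKM in siUSP43 libraries, against 0.52, 0.55 and 0.40 FPKM in siNC libraries (0.51, SE 0.14), and passed the minimum through its siUSP43 level. ZNF358, the most abundant member, fell, with 5.82, 6.19 and 4.54 FPKM in siUSP43 libraries, against 6.40, 8.06 and 8.12 FPKM in siNC libraries (-0.46, SE 0.12, adjusted p 0.00726, edgeR). Its second siUSP43 library and first siNC library nearly met. ZNF558, which controls the mitophagy gene SPATA18, did not pass the test, with 1.21, 1.15 and 1.25 FPKM in siUSP43 libraries, against 1.22, 1.22 and 1.35 FPKM in siNC libraries (-0.08, SE 0.09). ZNF557, the first member, had overlapping groups at 0.66, 0.73 and 0.80 FPKM in siUSP43 libraries, against 0.69, 0.71 and 0.63 FPKM in siNC libraries (0.11, SE 0.13). ZNF414 (-0.03, SE 0.16) and ZNF561 (0.13, SE 0.09) did not pass either.

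Cluster 1 had 2 members at low levels. ZNF555 had 0.63, 0.49 and 0.67 FPKM in siUSP43 libraries, against 0.45, 0.56 and 0.51 FPKM in siNC libraries (log2 fold change 0.24, SE 0.14, adjusted p 0.183, edgeR). ZNF77 had 1.10, 1.22 and 1.30 FPKM in siUSP43 libraries, against 0.89, 1.18 and 0.98 FPKM in siNC libraries (0.24, SE 0.16, adjusted p 0.242, edgeR). Both overlapped between groups, and ZNF555 passed the test without siUSP43 library 2.

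Genes inside the clusters whose symbol did not meet the member rule were compared as neighbours. In cluster 4, 12 such genes were tested, of which 3 rose (BNIP3P17 by 0.93, the unnamed ENSG00000280079 by 0.74 and LINC01224 by 0.21 on the log2 scale) and 0 fell, with a median log2 fold change of 0.20. These 3 were named after their values were seen. Among all genes tested, 26.6% were called higher. BNIP3P17 and ENSG00000280079 overlap on opposite strands. Without a stated strand setting, the reads in their overlap cannot be told apart. In cluster 2 the neighbours numbered 21, with 4 higher, 4 lower and a median of -0.05, and in cluster 3 they numbered 7, with 1 higher, 2 lower (ECSIT and the antisense gene ZNF433-AS1) and a median of -0.18. The 367 tested genes of the short arm with other symbols had 66 higher (18.0%), 119 lower and a median of -0.11. Zinc finger genes of the long arm lay between these values and the members: 56 of 127 rose (44.1%), 7 fell and the median was 0.26. Among ZNF genes of other chromosomes, 93 of 211 rose (44.1%), 29 fell and the median was 0.17. These groups were compared by counts and medians, with no test of the difference between them.

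**Figure D3:**
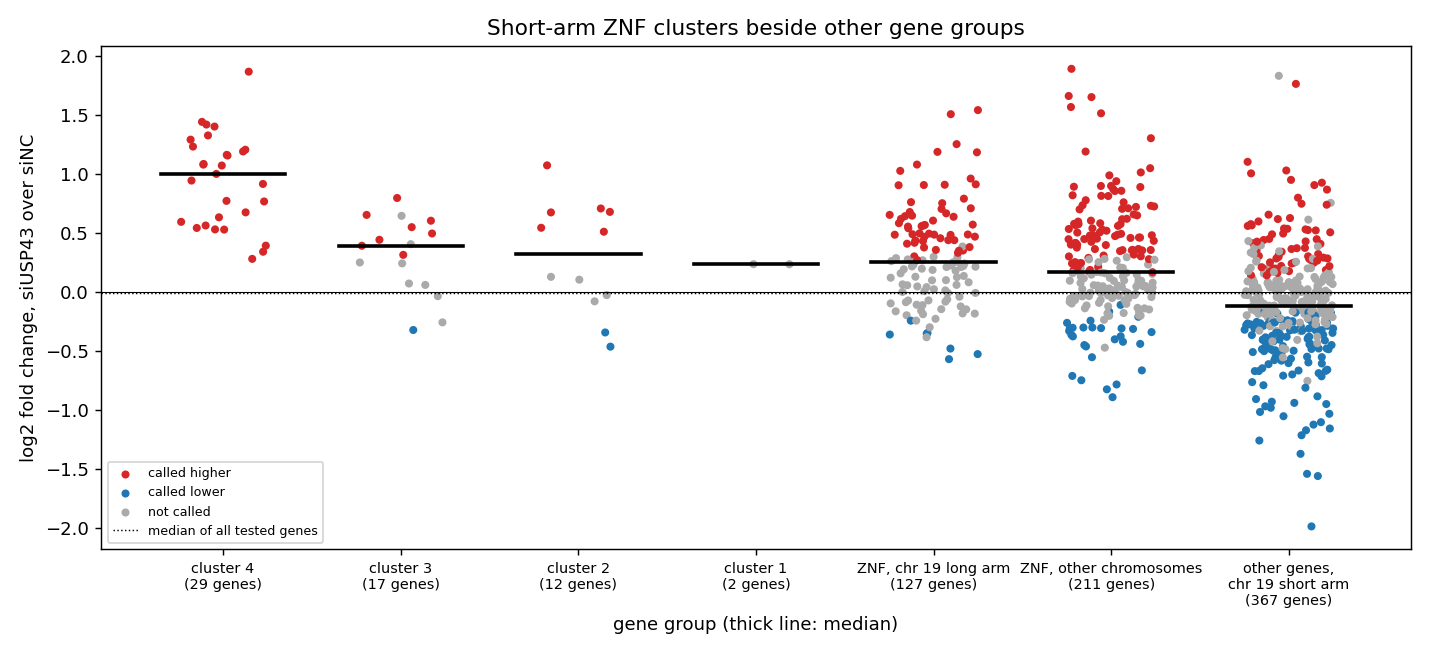
Log2 fold change of siUSP43 over siNC (y axis) for each tested gene (points, coloured by call) in the 4 short-arm clusters and in 3 other gene groups (x axis); thick lines are group medians and the dotted line is the median of all genes tested. Cluster 4 has a median of 1.00 with no point below 0.28, against medians of 0.39, 0.32 and 0.24 in clusters 3, 2 and 1.

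The finger stretch printed above was absent from ZNF101, ZNF14 and ZNF738 in cluster 4. These 3 genes had a median log2 fold change of 0.34, against 1.08 over the 26 carriers of the cluster. The longest coding sequence of ZNF738 (137 amino acids) held no finger. The 34 members that lack the stretch, in any cluster, had 17 higher, 3 lower and a median of 0.33. The stretch was chosen after the fold changes were known and tells cluster 4 from the other clusters, so these values are not independent of position.

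Carriers on other chromosomes were looked up with the same letters in all GENCODE transcripts, where 93 of 58676 genes held the stretch. The fit tested 13 of them outside chromosome 19, and 12 of the 13 rose, with a median log2 fold change of 0.89. Among all genes tested, 26.6% were called higher. The 13 are not scattered. Those on chromosome 7 lay within 64307459 to 65401136 and those on chromosome 4 within 53286 to 499156, so their values are not independent of position either. Whether reads were shared among these carriers or with other genes was not tested. The 198 ZNF genes of other chromosomes without the finger stretch had 81 higher, 29 lower and a median of 0.15. ZNF678 on chromosome 1 had 1.79, 1.63 and 2.09 FPKM in siUSP43 libraries, against 0.48, 0.47 and 0.53 FPKM in siNC libraries (1.89, SE 0.11, adjusted p 5.69e-08, edgeR). ZNF138 on chromosome 7 had 5.91, 5.41 and 6.16 FPKM in siUSP43 libraries, against 1.71, 2.00 and 1.83 FPKM in siNC libraries (1.65, SE 0.10, adjusted p 4.18e-08, edgeR). ZNF267 on chromosome 16 had 5.54, 5.10 and 6.01 FPKM in siUSP43 libraries, against 1.89, 1.91 and 1.78 FPKM in siNC libraries (1.57, SE 0.08, adjusted p 8.93e-09, edgeR). In these 3 genes the groups were widely separated. ZNF678 had a siNC mean of 0.493 FPKM, so it passed the minimum of 0.5 FPKM through its siUSP43 level.

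The other carriers that rose outside chromosome 19 were ZNF680 (1.30), ZNF92 (1.05), ZNF273 (0.89), ZNF107 (0.74) and ZNF736 (0.43) on chromosome 7, ZNF721 (1.19), ZNF595 (0.76) and ZNF141 (0.40) on chromosome 4 and ZNF695 (0.62) on chromosome 1, each given as a log2 fold change. ZNF731P on chromosome 1 did not pass the test, with 13.58, 10.77 and 15.15 FPKM in siUSP43 libraries, against 11.22, 12.35 and 9.46 FPKM in siNC libraries (0.25, SE 0.12, adjusted p 0.0928, edgeR). Its groups overlapped. ZNF528 was the tested carrier of the chromosome 19 long arm and did not pass either (0.04, SE 0.09, adjusted p 0.714, edgeR).

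**Figure D4:**
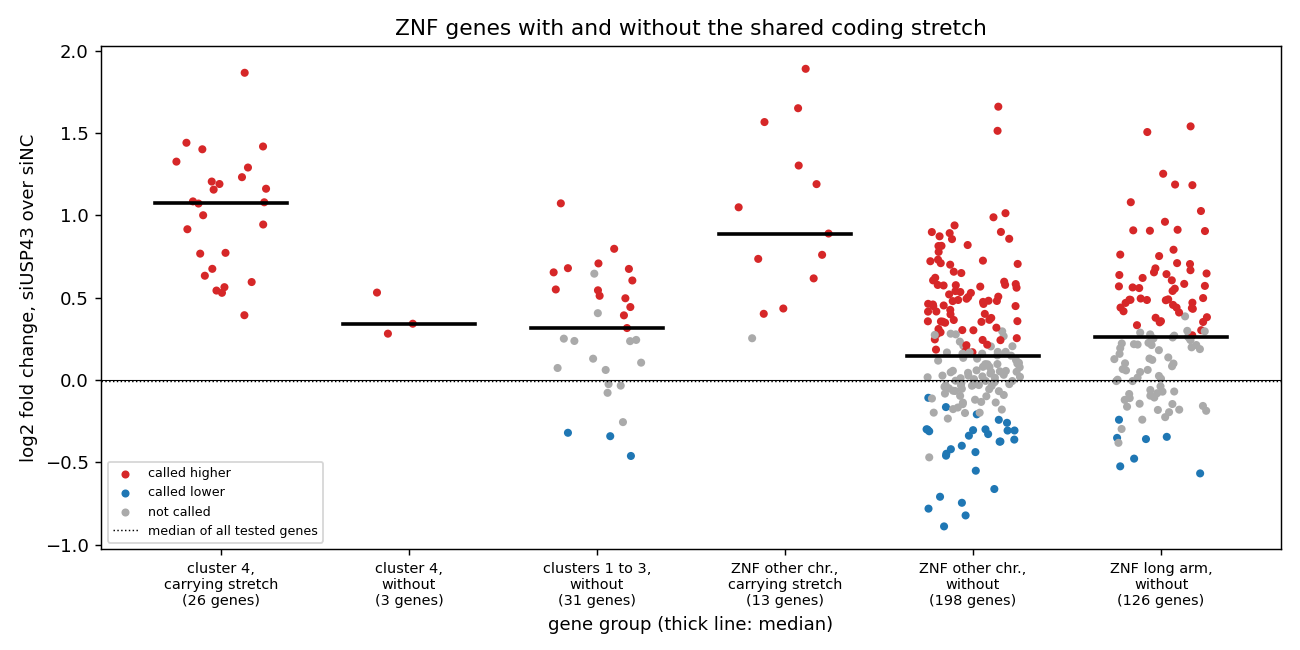
Log2 fold change of siUSP43 over siNC (y axis) for tested ZNF genes with and without the finger stretch (x axis), by position; points are genes coloured by call, thick lines medians and the dotted line the median of all genes tested. Carriers have medians of 1.08 in cluster 4 and 0.89 on other chromosomes, against 0.34 in the 3 cluster 4 genes without it and 0.15 in the 198 genes of other chromosomes without it.

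Other features of the members were described in the same way. A KRAB box was found by pattern in 51 members, of which 40 rose and 1 fell, with a median log2 fold change of 0.59. The 9 without a match had 3 higher, 2 lower and a median of 0.24. A gene without a match may still encode a KRAB box, and the 9 include the pseudogene ZNF887P, which has no coding sequence. Of the 51 with a match, 27 lay in cluster 4, where 29 of 29 members rose, so this split is not independent of position. Both strands of cluster 4 were alike in direction: 17 genes on the plus strand had a median of 0.92 and 12 on the minus strand a median of 1.12. Cluster 4 promoters with either 12-base element belonged to 22 genes with a median of 1.08, and those with neither to 4 genes (ZNF101, ZNF14, ZNF682 and ZNF708) with a median of 0.54. ZNF101 and ZNF14 also lack the finger stretch, so this split and that by the stretch rest partly on the same genes. Split by CTGTCACTCAGG alone, the 17 genes with it had a median of 1.00 and the 9 without it a median of 1.07. Across the 29 genes of cluster 4, the fold change had a Spearman's rho of 0.02 (Pearson's r 0.09) with the number of fingers, 0.11 (0.08) with the copies of the finger stretch, 0.11 (0.18) with the mean level and 0.39 (0.37) with the start position. These are descriptions over genes that share libraries and sequence, and genes are not independent replicates.

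Because the members resemble each other, reads could have been counted for a near-identical copy. The median member shared 3.74% of its 50-base stretches with another gene, and 10 members shared over 10%. Of the 50 members at or below 10%, 38 rose and 2 fell, with a median log2 fold change of 0.58. Another 6 members overlap a tested gene (ZNF433, ZNF844, ZNF506, ZNF253, ZNF730 and ZNF726), and of the 54 that do not, 37 rose and 3 fell.

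The proteins that KRAB zinc finger proteins work with were taken as a list of 25 genes, all tested. In siUSP43 cells 13 of them rose (52.0%, against 26.6% of all genes tested), 6 fell (24%, against 25.9%) and the median log2 fold change was 0.18. TASOR, a subunit of the HUSH silencing complex, had 10.67, 9.53 and 11.49 FPKM in siUSP43 libraries, against 6.54, 6.38 and 5.99 FPKM in siNC libraries (0.74, SE 0.07, adjusted p 1.43e-06, edgeR). SUV39H2, a histone H3 lysine 9 methyltransferase (0.60, SE 0.07), CHAF1B, a subunit of the chromatin assembly factor CAF-1 (0.53, SE 0.06), MORC2, an ATPase that acts with HUSH (0.40, SE 0.06), and CBX1, an HP1 protein (0.39, SE 0.04), rose. The other HP1 genes, CBX3 (-0.22, SE 0.04) and CBX5 (-0.18, SE 0.04), fell, and so did SUV39H1 (-0.20, SE 0.07), which encodes the related methyltransferase and whose call was lost without siUSP43 library 1 or 3, without siNC library 2 or 3 and in DESeq2. CHAF1B overlaps the end of MORC3, also called higher. DAXX, which places histone H3.3 with ATRX, fell, with 18.15, 18.04 and 16.66 FPKM in siUSP43 libraries, against 23.21, 21.85 and 23.49 FPKM in siNC libraries (-0.38, SE 0.06, adjusted p 0.000114, edgeR).

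TRIM28, the co-repressor that the KRAB box binds, rose by a small amount. It had 55.69, 58.47 and 50.61 FPKM in siUSP43 libraries, against 46.68, 48.69 and 49.40 FPKM in siNC libraries (log2 fold change 0.18, SE 0.06, adjusted p 0.0182, edgeR). The third siUSP43 library was close to the siNC libraries, and the call was lost without siUSP43 library 1 or 2 or without siNC library 1 or 2. SETDB1 had 2.71, 3.05 and 2.83 FPKM in siUSP43 libraries, against 3.12, 3.33 and 3.31 FPKM in siNC libraries (-0.20, SE 0.07, adjusted p 0.0325, edgeR), and its call was lost without siUSP43 library 1, siNC library 2 or siNC library 3. ZNF274, a zinc finger protein that marks zinc finger gene clusters by recruiting SETDB1, did not pass the test, with 1.12, 1.33 and 1.12 FPKM in siUSP43 libraries, against 0.96, 1.02 and 1.07 FPKM in siNC libraries (0.22, SE 0.10, adjusted p 0.0956, edgeR). Without siUSP43 library 1 or without siNC library 3, 3 genes of the list were called lower in place of 6.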

How the data were processed

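RNA from 6 T24 libraries was sequenced, 3 siUSP43 and 3 siNC. Reads were trimmed with cutadapt 2.6 and aligned with HISAT2 2.2.1 to GRCh38, names taken from the submitters' processing notes. The deposited table gives raw counts and FPKM for each gene, and the exonic size used for FPKM as another column, per the file headers. The counter, annotation release, strand setting and treatment of reads matching several genes are not given in the sources used here. Counts at a mean FPKM of at least 0.5 (13420 genes, USP43 included) were tested with edgeR 4.0.16 in R 4.3.3 (TMM scaling, quasi-likelihood test, two-sided, group as the only term), with Benjamini-Hochberg adjustment over all of them and calls at an adjusted p under 0.05. The code was tested on simulated data. Alternatives used DESeq2 1.42.0, limma 3.58.1 on log2(FPKM + 1) or log2(FPKM + 0.1), other scalings and minimums, and left-out libraries.

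The members and lists were chosen with earlier results of these data known. Genes were named by a rule: USP43, the 12 largest increases and decreases among called members without overlap (3 decreases existed), the 6 most abundant members, the 3 rows on either side of the minimum, the first and last member of each cluster, and up to 6 called genes of the silencing list with TRIM28, SETDB1 and ZNF274. Other names, the finger stretch, the promoter elements and the genes carrying them were chosen after their values were seen. Coding sequences, the KRAB pattern, fingers and shared 50-base stretches came from GENCODE release 29, where 60 of 60 members matched, 59 with a coding sequence. Libraries of 21430574 to 25577200 counts limit the precision of these low genes. No column was left unmapped.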

Additional observations from a re-analysis of the deposited data

How the results depend on the processing

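The count of members called higher was 40 to 43 under the other scalings, without a filter, in DESeq2, in both limma fits and without 1 library at a time, and the count called lower was 2 to 3. With genes tested, or members counted, at a mean of at least 1 FPKM, 34 of 44 members were called higher and their median log2 fold change was 0.66. That minimum also used the mean over both groups, so some members passed it through their siUSP43 level. The median over the 60 members was 0.33 in limma on log2(FPKM + 1), whose added constant shrinks the change of low genes, and 0.52 with a constant of 0.1. It was 0.55 to 0.63 without 1 library. In cluster 4, 29 of 29 members were called higher under both other scalings, without a filter and in DESeq2, and 27 of 29 in both limma fits, which did not call ZNF730 and ZNF738. ZNF44 and ZNF562 also lost their calls in both limma fits, ZNF433 lost its call without a filter, in DESeq2 and with the replicate block, and SETDB1 lost its call in these and in both limma fits. Of 46 called members, 38 kept their call in every alternative that tested them (14 alternatives for 36 of them and 13 for the 10 below a mean of 1 FPKM), and among the 14 uncalled members ZNF414 and ZNF799, both near 0, changed sign in 1 alternative each. USP43 ranged from -1.55 to -1.27 without 1 library. The genes of the silencing list called lower numbered 3 to 6 without 1 library. Libraries of the same number did not deviate together (correlations -0.03, -0.15 and -0.31), and 0 of 3 siUSP43 libraries correlated best with their own number. No pairing by number was seen, but 3 libraries per group cannot exclude it. With the replicate block, 42 members were called higher and 3 lower, the median was 0.58, USP43 was at -1.41, and 3 genes of the silencing list were called lower. The alternatives for members below 10% shared sequence and for members at 0.5 FPKM in each group were added after seeing the data. Counts of 12 to 1625 per library limit what can be seen in the lowest members.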
